A study of Caenorhabditis elegans with 10 samples.

Results

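The 2 libraries with replicate number 5, 1 of N2 and 1 of F01D4.5(baf20), were set against the 8 libraries numbered 1 to 4, with strain as a term in the model. They make up 2 of the 10 libraries of the series. The 2 libraries were selected on these same counts, in which they had been seen to stand apart, so every difference in gene levels between them and the other 8 is given as a description, with no test and no p-value. The total count per library, which is no gene level, was compared by a test. The labels of the 2 libraries differ from the rest in the replicate number alone, and no growth, extraction or sequencing date is given.

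Whole Caenorhabditis elegans were sequenced. The first group holds replicate 5 of N2 and of F01D4.5(baf20), and the second holds replicates 1 to 4 of each strain, all from worms grown in the same way. N2 is the standard laboratory wild type; F01D4.5(baf20) bears the name of a gene, and the nature of any change in that gene is not in the labels, nor whether the strain is 1 isolate. After arrest at the L1 larval stage the worms fed on the Escherichia coli strain OP50 and were collected 48 hours later at 20 °C, 1000 to 2000 to a sample, so that each library averages a population rather than showing single worms.

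A few features of worm development serve as background. C. elegans passes through larval stages separated by moults. In each moult the epidermis lays down a new collagen cuticle under the old one, and collagens, apical matrix proteins, hedgehog-related proteins and cuticle-processing enzymes are made in timed bursts, repeated with every moult. The hermaphrodite germline first makes sperm in the last larval stage and then switches to oocytes, which store maternal mRNAs for RNA-binding proteins, P granule components and eggshell proteins, while the intestine supplies yolk. The transcriptome of a whole worm near adulthood therefore reports at once on the phase of the cuticle cycle, on the size and state of the germline and on intestinal metabolism. In whole worms, fewer cells of a type and less RNA per cell cannot be told apart.

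The total counts of the 2 libraries lay inside the range of the other 8. The total was 10248255 in N2 replicate 5 and 9742488 in its F01D4.5(baf20) counterpart, against 9059910 to 11056979 in the other 8 (means of 9995372 and 10054173). An exact two-sided permutation test of the means gave p = 0.956, where 0.0444 is the smallest p the 45 splits allow. A gene with 3 counts stood at 0.271 to 0.331 CPM (counts scaled to library size, with the scaling factors applied in all gene levels below), and such limits cover counting error only. With at least 1 count, 17767 and 17579 genes were detected in the replicate 5 libraries, against 17260 to 17734 in the others. F01D4.5, after which the second strain is named (IV:10482624-10483657 on WBcel235, minus strand, with 2 rows), followed the strain labels within either group. It had 2.12 CPM in F01D4.5(baf20) replicate 5 and 2.98 to 4.04 CPM in F01D4.5(baf20) replicates 1 to 4, and 6.35 CPM in N2 replicate 5 and 9.88 to 14.5 CPM in N2 replicates 1 to 4.

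In a principal component analysis of log2 CPM over 13167 genes, the first component held 54.8% of the variance. N2 replicate 5 stood at 82.1 and F01D4.5(baf20) replicate 5 at 72.7 on it, against -43.4 to 7.6 for the other 8 libraries. The nearest of the 8 were N2 replicates 2, 3 and 4, at -2.1, 7.5 and 7.6. N2 replicate 1 stood at -39.1, and the 4 F01D4.5(baf20) libraries lay between -43.4 and -24.5. The 2 replicate 5 libraries correlated with each other at r = 0.984 across genes, and with the other 8 at 0.912 to 0.963, while pairs among the 8 gave 0.965 to 0.992. The pair of different strains that shares the number 5 was thus closer to each other than either was to a library of its own strain.

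**Figure D1:**
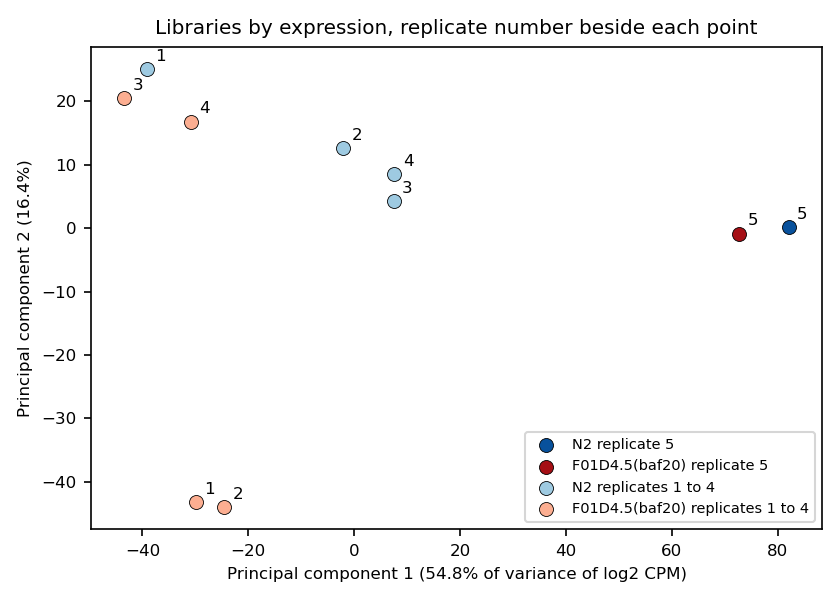
Each point is 1 of the 10 libraries on the first 2 principal components of log2 CPM, with the replicate number beside it; dark points are replicate 5, pale points replicates 1 to 4, blue N2 and red F01D4.5(baf20). The replicate 5 libraries lie at 82.1 and 72.7 on the first component and all others at 7.6 or less, while F01D4.5(baf20) replicates 1 and 2 stand apart on the second.

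A gene was called higher or lower when both replicate 5 libraries lay outside the range of the other 8 in scaled CPM and the fitted fold change was at least 2-fold. That the 2 groups of a called gene do not overlap is therefore fixed by the call, wherever it is stated below. Of 13167 genes with enough counts, 1688 (12.8%) were called higher and 194 (1.47%) lower. Since the choice of libraries rests on these counts, nothing is read from these shares beyond their size; they serve as the background for the lists below. With no limit on the fold, 3009 genes (22.9%) lay above the range of the 8 and 2589 (19.7%) below it. The directions thus differed more in the size of the differences than in the number of genes. Among the genes called higher, 590 were at least 4-fold and 216 at least 8-fold higher, while 14 of the genes called lower reached 4-fold. Of the genes below the range, 2395 were under the 2-fold limit. The median log2 fold change over all genes was -0.05, and with library totals in place of scaling factors it was -0.16, so that a list's median is best read against these values. Of the genes kept, 331 passed the count limit through the replicate 5 libraries alone, and 215 of them were called higher.

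**Figure D2:**
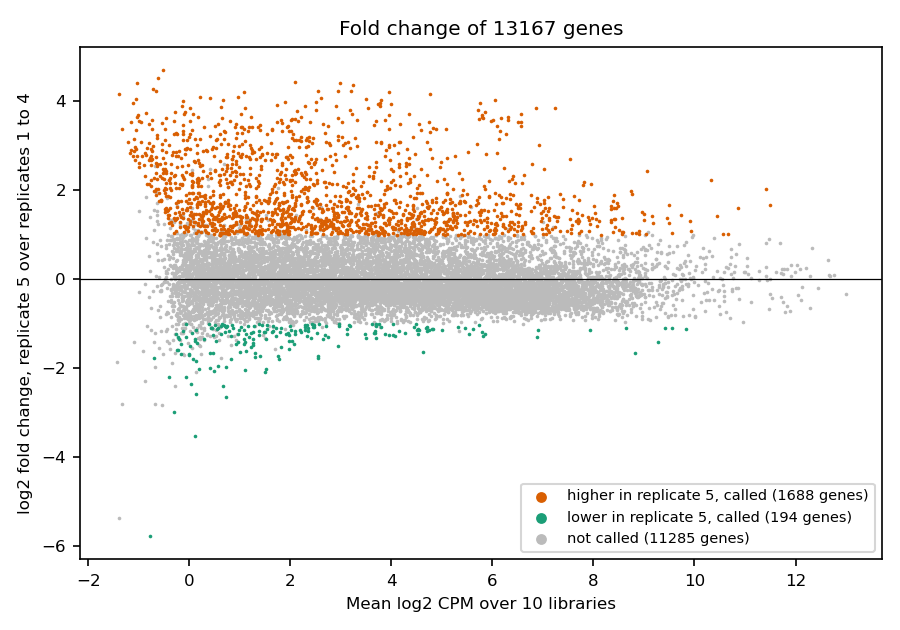
Each dot is a gene, with the mean log2 CPM over the 10 libraries on the horizontal axis and the log2 fold change of replicate 5 over replicates 1 to 4 on the vertical axis. The 1688 genes called higher reach a log2 fold change of 4.7 and 590 of them are at least 4-fold higher, and 14 of the 194 called lower are at least 4-fold lower.

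The collagens of the cuticle furrows, the circular grooves between body annuli, were higher in both replicate 5 libraries. Of the 6 listed genes 5 had enough counts, and each of the 5 was called higher, with a median log2 fold change of 2.57. Their mean log2 CPM was 5.01 in N2 replicate 5 and 3.49 in its F01D4.5(baf20) counterpart, against 0.40 to 2.59 in the other libraries. Furrow collagen genes are among the earliest collagens made in a moulting cycle. dpy-7, whose promoter is widely used to drive expression in the epidermis, had 40.3 CPM in N2 replicate 5 and 11.4 CPM in F01D4.5(baf20) replicate 5, against a lowest value of 0.41, a median of 2.77 and a highest of 5.85 CPM in replicates 1 to 4. Its 2 groups did not overlap, and its log2 fold change was 2.96 (SE 0.471). dpy-8 had 47.9 and 18.6 CPM in the replicate 5 libraries of N2 and F01D4.5(baf20), against 2.57, 4.09 and 9.79 CPM as lowest, median and highest value of the others, a log2 fold change of 2.57 (SE 0.298). In both genes N2 replicate 5 was the higher of the 2. dpy-10 had too few counts to be kept.

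The annular and body shape collagens, whose mutants are short, long or rolling worms, gave the highest list median, 3.42 on the log2 scale. Of 10 listed genes 8 were kept and 7 called higher. The list averaged 7.74 log2 CPM in N2 replicate 5 and 6.95 in its F01D4.5(baf20) counterpart, against 2.71 to 5.71 in the others. Its share of scaled counts was 0.303% and 0.182% in the replicate 5 libraries, against 0.00584% to 0.0628%. Such a share is the summed scaled CPM of a list given as a percentage, and not a share of the raw counts. dpy-13 had 620.9 CPM in N2 replicate 5 and 413.1 CPM in F01D4.5(baf20) replicate 5, against 11.6, 26.8 and 122.5 CPM (lowest, median and highest) in replicates 1 to 4, a log2 fold change of 3.59 (SE 0.608). Both replicate 5 values were above the highest of the other 8. dpy-5 had 757.5 and 356.9 CPM in the replicate 5 libraries of N2 and F01D4.5(baf20), against 11.9, 30.9 and 139.3 CPM in the others (log2 fold change 3.45, SE 0.612). rol-1 had the largest log2 fold change of the list, 3.63, and that of dpy-4 was 3.55. dpy-17 was the member kept that was not called, with 10.8 and 7.37 CPM in the replicate 5 libraries and 4.73 to 9.28 CPM in the others.

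Collagens of the last larval and adult cuticle divided. Of 9 genes 6 were called higher, with a list median of 3.02. rol-6, the collagen gene whose dominant allele is a common marker of transgenic worms, had 249.3 CPM in N2 replicate 5 and 127.6 CPM in F01D4.5(baf20) replicate 5, against 3.53, 9.06 and 43.3 CPM in replicates 1 to 4 (log2 fold change 3.72, SE 0.612). bli-2, which encodes a collagen of the struts of the adult cuticle, had 324.6 and 144.2 CPM in the replicate 5 libraries, against 4.34, 13.3 and 57.2 CPM in the others (log2 fold change 3.54, SE 0.599). bli-1, of the same struts, had a log2 fold change of 2.53. The groups of rol-6 and of bli-2 did not overlap. col-19, an adult-specific collagen gene, went the other way, with 3586 CPM in N2 replicate 5 and 3207 CPM in F01D4.5(baf20) replicate 5, against 3887, 4847 and 5359 CPM in replicates 1 to 4. Both of its replicate 5 values were below the 8 others, though its log2 fold change of -0.48 (SE 0.11) stayed under the limit of a call. The summed level of the list overlapped between the groups, at 0.655% and 0.518% of scaled counts in the replicate 5 libraries and 0.446% to 0.639% in the others.

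The col genes, the largest collagen family, showed the same division by level. Of 159 genes 115 were kept, 7 of them through the replicate 5 libraries alone. Of the 115, 64 were called higher and 6 lower, and the median was 1.46. The collagens with the largest differences came from this family. col-120 had 287.0 CPM in N2 replicate 5 and 277.2 CPM in F01D4.5(baf20) replicate 5, against 5.15, 10.5 and 48.3 CPM in replicates 1 to 4, a log2 fold change of 4.18 (SE 0.612). col-131 had 127.1 and 109.6 CPM in the replicate 5 libraries, against 1.099, 3.92 and 17.4 CPM in the others, a log2 fold change of 4.38. These groups stood far apart in both strains. The family was then split by mean log2 CPM over all 10 libraries, the replicate 5 libraries included. The split was made after the values were seen and was not adjusted for gene length. In the family 38 of 57 genes under 5 and 26 of 44 genes between 5 and 10 were called higher. Over all genes the counts were 1365 of 8686 under 5 and 316 of 4369 between 5 and 10. Of the 14 genes at 10 or more, 0 were called in either direction, 12 had a negative log2 fold change and 8 lay below the range of the other libraries, with a median of -0.40. For all 112 genes of the genome-wide set at that level the median was 0.09, and 26 lay below the range. The whole family took 6.06% and 5.48% of scaled counts in the replicate 5 libraries, inside the 4.61% to 6.96% of the other 8.

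The collagens called lower included highly counted genes. col-143 had 178.8 CPM in N2 replicate 5 and 206.9 CPM in F01D4.5(baf20) replicate 5, against 345.9, 452.3 and 960.9 CPM in replicates 1 to 4 (log2 fold change -1.66, SE 0.519). col-98 had 315.8 and 272.9 CPM in the replicate 5 libraries, against 560.0, 660.7 and 1108 CPM in the others (log2 fold change -1.41, SE 0.346). Both replicate 5 libraries were below all 8 others for either gene.

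**Figure D3:**
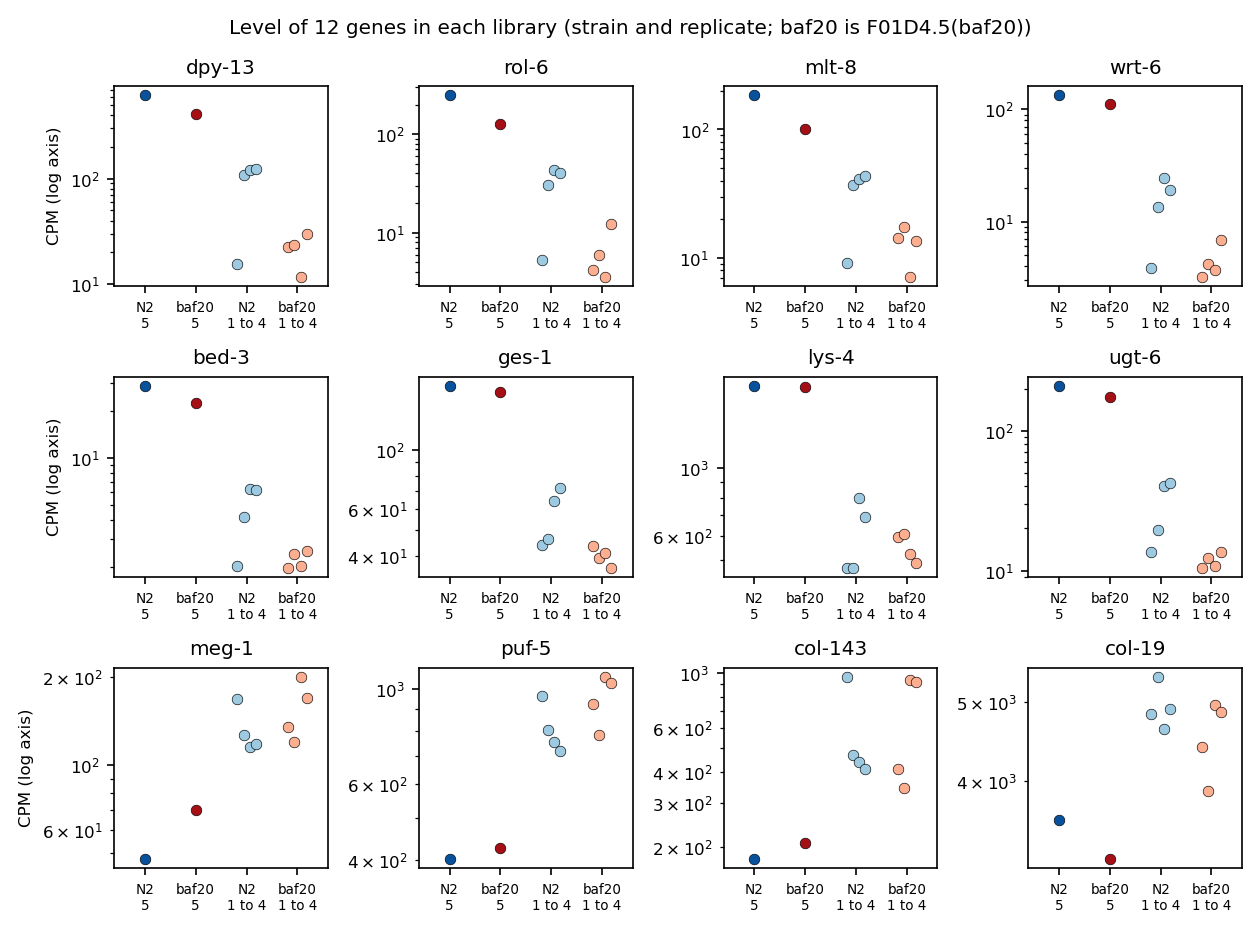
Each panel shows the CPM of 1 gene on a log axis in each library, with replicate 5 of N2 and of F01D4.5(baf20) on the left and replicates 1 to 4 of each strain on the right; the genes shown were picked after their values were seen. dpy-13, rol-6, mlt-8, wrt-6, bed-3, ges-1, lys-4 and ugt-6 are highest in the 2 replicate 5 libraries, and meg-1, puf-5, col-143 and col-19 are lowest there.

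Other parts of the cuticle and the apical matrix were higher as well. Of 35 cuticlin and zona pellucida domain genes, whose products include the insoluble cuticlins of the cuticle and its alae, 21 were kept, 4 of them through the replicate 5 libraries alone, and 14 were called higher (median 1.37). cut-2, a cuticlin, had 139.4 CPM in N2 replicate 5 and 128.7 CPM in F01D4.5(baf20) replicate 5, against 1.62, 6.22 and 30.5 CPM in replicates 1 to 4 (log2 fold change 3.89, SE 0.747). Of the enzymes that modify collagen 9 of 12 were kept and 3 called higher, with a median of 0.49. dpy-18, an alpha subunit of prolyl 4-hydroxylase, had 139.9 and 114.3 CPM in the replicate 5 libraries, against 26.2, 46.1 and 65.3 CPM in the others (log2 fold change 1.51, SE 0.178). The second alpha subunit, phy-2, and mlt-7, a haem peroxidase that acts on the cuticle, were also called higher, at log2 fold changes of 1.01 and 1.03.

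Genes that act in moulting itself were mixed. Of 19 moulting and apical matrix genes 15 were kept, 2 of them through the replicate 5 libraries alone, and 8 were called higher (median 1.95). mlt-8, needed for moulting, had 185.3 CPM in N2 replicate 5 and 100.2 CPM in F01D4.5(baf20) replicate 5, against 7.07, 15.8 and 43.2 CPM in replicates 1 to 4 (log2 fold change 2.73, SE 0.435). mlt-10, which is switched on in every moulting cycle, had 90.5 and 32.6 CPM in the replicate 5 libraries, against 2.68, 11.4 and 30.8 CPM in the others (log2 fold change 2.04, SE 0.512). For mlt-10 the lower replicate 5 value was barely above the highest of the 8. qua-1, a hedgehog-related gene required for moulting, and lpr-3, a lipocalin of the apical matrix, had log2 fold changes of 2.62 and 3.08. nas-37, a metalloprotease that digests the old cuticle at its shedding, overlapped between the groups, with 4.81 and 5.02 CPM in the replicate 5 libraries and 4.60 to 7.41 CPM in the others.

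Among transcription factors and other regulators of the moulting cycle, 7 of 12 were kept, 1 of them through the replicate 5 libraries alone, and 4 called higher. bed-3, a zinc finger factor needed to complete moulting, had 28.7 CPM in N2 replicate 5 and 22.4 CPM in F01D4.5(baf20) replicate 5, against 1.96, 2.47 and 6.31 CPM in replicates 1 to 4 (log2 fold change 2.97, SE 0.282). myrf-1, a membrane-bound factor that promotes moulting, had 68.1 and 71.2 CPM in the replicate 5 libraries, against 23.8, 30.9 and 39.5 CPM in the others (log2 fold change 1.15, SE 0.151). nhr-23, a nuclear receptor that drives the moulting cycle, overlapped at 9.01 and 7.03 CPM in the replicate 5 libraries and 7.29 to 13.1 CPM in the others, and its counts come from 6 rows. lin-42, the worm relative of the period gene, was called higher, but at 1.74 and 1.90 CPM in the replicate 5 libraries and 0 to 1.04 CPM in the others, with 3 rows, and it was kept through the replicate 5 libraries alone. The heterochronic genes, which time larval stages, gave 2 called higher of 13 kept, lin-42 included, and a median of 0.22. That share, 15.4%, is near the 12.8% of all genes. lin-28 and lin-29, which act early and late in that pathway, overlapped between the groups.

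Hedgehog-related and patched-related genes of the worm are largely expressed in the epidermis, and several are needed for moulting. Of 87 genes 56 were kept, 6 of them through the replicate 5 libraries alone, and 35 were called higher and 0 lower, with a median of 1.53; 6 lay below the range of the other libraries at less than 2-fold. wrt-6, of the warthog family, had 134.2 CPM in N2 replicate 5 and 111.2 CPM in F01D4.5(baf20) replicate 5, against 3.19, 5.49 and 24.7 CPM in replicates 1 to 4 (log2 fold change 3.95, SE 0.507). grd-6, of the groundhog family, had 151.2 and 167.0 CPM in the replicate 5 libraries, against 2.12, 5.74 and 36.1 CPM in the others (log2 fold change 4.22, SE 0.696). grd-14, of the same family as grd-6, had 490.1 and 427.6 CPM in the replicate 5 libraries and 20.4 to 111.8 CPM in the others. As the call requires, none of the 3 genes overlapped between the groups.

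The abu genes, glutamine-rich secreted proteins of the pharyngeal cuticle, were higher, and the joint list of abu and pqn genes was mixed. Of 10 abu genes kept 7 were called higher, with a family median of 2.74. abu-14 had 48.7 CPM in N2 replicate 5 and 76.4 CPM in F01D4.5(baf20) replicate 5, against 0.91, 4.88 and 10.9 CPM in replicates 1 to 4 (log2 fold change 3.63, SE 0.613). In the joint list 13 of 46 genes kept were called higher and 0 lower, 2 of the 46 being kept through the replicate 5 libraries alone. The list averaged 3.48 log2 CPM in N2 replicate 5 and 4.02 in its F01D4.5(baf20) counterpart, above the 2.31 to 3.28 of the others. Its median log2 fold change was 0.31, with 24 positive and 22 negative members, 6 of them below the range of the others in both replicate 5 libraries; over the alternatives it ranged between -0.10 and 0.94.

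A view by symbol family, which used no chosen list, put cuticle surface genes first. Among families with at least 10 genes kept, the bus genes, many of which act in the glycosylation of the cuticle surface, had the highest share called higher, 10 of 12 genes. The dbd and grl families followed with 10 of 14 each, then abu, cutl with 12 of 19, mec with 8 of 13, grd with 6 of 10 and lips with 7 of 12. These counts include genes kept through the replicate 5 libraries alone, 3 in dbd, 4 in grl, 4 in cutl, and 1 each in mec, grd and lips, genes that passed the filter where they were high. For the genes called lower, col had 6 of 115 members called (5.22%), clec 3 of 106 (2.83%) and fbxa 3 of 131 (2.29%). Over all genes 1.47% were called lower, and the last 2 families lie near that share. The highest shares were in small counts, 2 of 11 in ints, 2 of 17 in skr, 2 of 18 in gcy and 2 of 22 in ztf, and cyp had 2 of 53.

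Levels of these epidermal lists also differed among the 8 libraries numbered 1 to 4. The annular and body shape collagens averaged 5.61, 5.55 and 5.71 log2 CPM in N2 replicates 2, 3 and 4, but 3.18 in N2 replicate 1. In F01D4.5(baf20) replicates 1 to 4 they averaged 3.20, 3.54, 2.71 and 4.13. Moulting and apical matrix genes averaged 3.73, 3.86 and 3.83 in N2 replicates 2 to 4 and 2.74 to 3.27 in the other 5. The hedgehog-related list gave 2.95, 3.21 and 3.17 in N2 replicates 2 to 4 and 2.27 to 2.58 in the other 5. The 8 libraries did not form a tight group for the cuticle genes, and the replicate 5 values lay above all 8 in each of these lists. In a principal component analysis of the 8 alone, the first component (33.4% of variance) placed F01D4.5(baf20) replicates 1 and 2 apart from the rest, at -44.3 and -44.5, and the second (31.2%) gave 25.7 to 34.3 for N2 replicates 2 to 4 and -33.5 to -1.8 for the other 5.

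**Figure D4:**
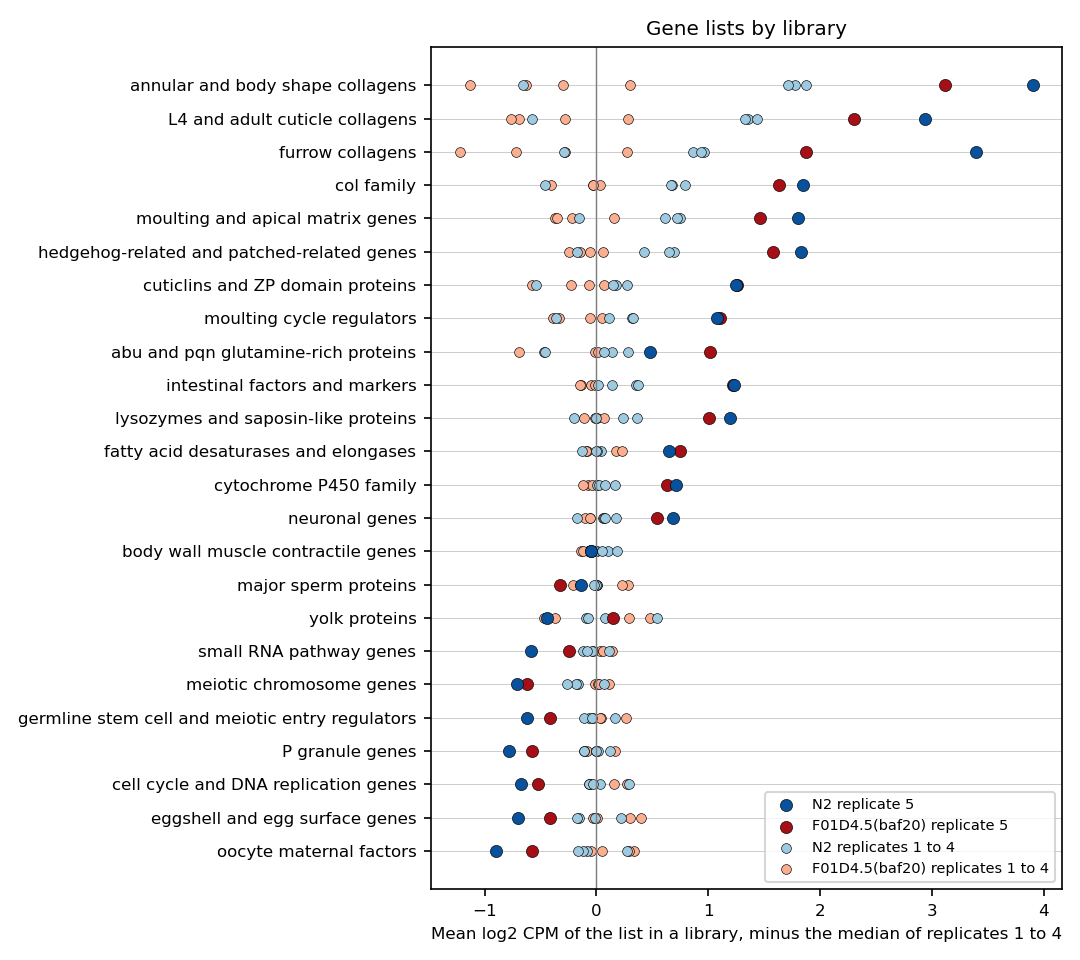
Each row is a gene list, and each point the mean log2 CPM of its kept genes in 1 library, minus the median of the 8 libraries numbered 1 to 4; dark points are replicate 5 and pale points replicates 1 to 4, blue for N2 and red for F01D4.5(baf20). The lists shown were picked after their values were seen. Cuticle, moulting, hedgehog-related and intestinal lists place both replicate 5 libraries right of the other 8, and oocyte, eggshell, P granule, meiotic and cell cycle lists place both to the left.

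Intestinal genes, taken as a list, were higher in both strains by like amounts, though single members differed. Of 21 intestinal factors and markers 16 were kept, 1 of them through the replicate 5 libraries alone, and 9 were called higher and 0 lower, with a median of 1.35. The list averaged 6.21 log2 CPM in either replicate 5 library, against 4.84 to 5.36 in the others. Its share of scaled counts was 0.837% and 0.805% against 0.362% to 0.5%. ges-1, the gut esterase, had 173.7 CPM in N2 replicate 5 and 165.6 CPM in F01D4.5(baf20) replicate 5, against 36.1, 43.9 and 72.2 CPM in replicates 1 to 4 (log2 fold change 1.84, SE 0.159). mtl-2, an intestinal metallothionein, had 494.4 and 474.2 CPM in the replicate 5 libraries, against 81.5, 201.1 and 230.6 CPM in the others (log2 fold change 1.49, SE 0.324). pgp-1, an efflux transporter of the intestine, had a log2 fold change of 2.25, and asp-1, an aspartyl protease counted over 4 rows, 1.95. Within N2 the log2 difference was 1.44 for pgp-1 and 2.30 for asp-1, and within F01D4.5(baf20) 2.90 and 1.70. elt-2, the GATA factor that maintains intestinal identity, was named after its values were seen. It had 78.5 and 80.9 CPM in the replicate 5 libraries and 31.7 to 56.6 CPM in the others, outside the range but under 2-fold (log2 fold change 0.93).

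Digestive, antimicrobial and detoxifying families, largely expressed in the intestine, showed the same direction. Of 26 lysozymes and saposin-like genes kept, 15 were called higher and 0 lower (median 1.11). lys-4, a lysozyme, had 1862 CPM in N2 replicate 5 and 1843 CPM in F01D4.5(baf20) replicate 5, against 469.8, 561.0 and 799.0 CPM in replicates 1 to 4 (log2 fold change 1.68, SE 0.167). Among UDP-glucuronosyl and glutathione transferases 20 of 85 genes kept were called higher and 0 lower (median 0.61), and among cytochrome P450 genes 22 of 53 higher and 2 lower (median 0.62). ugt-6, a glucuronosyltransferase, had 208.1 and 173.2 CPM in the replicate 5 libraries, against 10.4, 13.5 and 42.3 CPM in the others (log2 fold change 3.41, SE 0.355). cyp-33C5, a cytochrome P450, had a log2 fold change of 2.83 (SE 0.183). Of 106 C-type lectin genes kept, 28 were called higher and 3 lower (median 0.53). F-box A genes were close to the background, with 18 of 131 called higher and a median of 0.13. Kept through the replicate 5 libraries alone were 2 of the lysozyme and saposin-like genes, 1 transferase, 4 cytochrome P450, 9 lectin and 4 F-box A genes.

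Lipid genes were higher in part. Of 15 fatty acid desaturases and elongases kept, 4 were called higher and 9 lay above the range of the other libraries (median 0.50). fat-7, a stearoyl-CoA desaturase, had 290.7 CPM in N2 replicate 5 and 368.8 CPM in F01D4.5(baf20) replicate 5, against 50.2, 110.7 and 215.0 CPM in replicates 1 to 4 (log2 fold change 1.53, SE 0.315). elo-6, an elongase for branched-chain fatty acids, had 1606 and 1731 CPM in the replicate 5 libraries, against 176.8, 761.9 and 939.9 CPM in the others (log2 fold change 1.37, SE 0.585). lipl-2, a lipase of the fasting response list, had 36.98 and 62.4 CPM in the replicate 5 libraries and 6.23 to 16.36 CPM in the others. Of the 11 genes of that list kept, 3 were called higher, with a median of 0.91. Yolk protein genes, which are also made in the intestine, did not separate. Of the 5 kept 0 were called, and vit-2 had 1996 and 2489 CPM in the replicate 5 libraries, against 1706 to 2326 CPM in the others. The list median was -0.26 and ranged between -0.59 and 0.07 over the alternatives.

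Oocyte genes were lower in both replicate 5 libraries, by less than the cuticle genes were higher. Of 24 maternal factors of the oocyte 18 were kept, and each of these 18 was negative on the log2 fold scale (median -0.83); 5 were called lower and 14 lay below the range of the other 8. The list averaged 5.84 log2 CPM in N2 replicate 5 and 6.16 in its F01D4.5(baf20) counterpart, against 6.58 to 7.08 in the others. puf-5, a Pumilio-family RNA-binding protein of the oocyte, had 400.8 CPM in N2 replicate 5 and 425.5 CPM in F01D4.5(baf20) replicate 5, against 718.5, 862.8 and 1067 CPM in replicates 1 to 4 (log2 fold change -1.09, SE 0.143). meg-1, a maternal P granule regulator, had 47.6 and 70.4 CPM in the replicate 5 libraries, against 115.2, 131.2 and 200.4 CPM in the others (log2 fold change -1.31, SE 0.212). oma-2, a zinc finger protein of oocyte maturation, had 202.0 and 237.2 CPM in the replicate 5 libraries, against 372.0, 447.3 and 601.8 CPM in the others (log2 fold change -1.101, SE 0.186). No replicate 5 value of these 3 genes reached the lowest of the other 8. oma-1 and pos-1, a further zinc finger protein of the oocyte and early embryo, lay below the range at log2 fold changes of -0.85 and -0.89, under the limit of a call.

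The rest of the germline programme was shifted the same way, mostly under 2-fold. Of 13 eggshell genes kept 10 lay below the range of the other libraries (median -0.72), and so did 26 of 32 meiotic chromosome genes (median -0.63), 8 of 13 regulators of germline stem cells and meiotic entry (median -0.64), 10 of 10 P granule genes (median -0.65), 17 of 29 small RNA pathway genes (median -0.52) and 18 of 21 cell cycle and replication genes (median -0.66). Over all genes that share was 19.7%, and the contrast is the one that chose the libraries, so the counts are descriptive. syp-1, of the synaptonemal complex, had 98.4 CPM in N2 replicate 5 and 94.2 CPM in F01D4.5(baf20) replicate 5, against 140.9, 147.7 and 162.6 CPM in replicates 1 to 4 (log2 fold change -0.63, SE 0.0851). glp-1, the Notch receptor of germline stem cells, had 145.2 and 218.9 CPM in the replicate 5 libraries, against 236.7, 272.0 and 339.7 CPM in the others (log2 fold change -0.65, SE 0.149). The 2 strains' replicate 5 libraries were close to each other for syp-1 and apart for glp-1.

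Sperm genes differed less. Of 31 major sperm protein genes kept 29 were negative on the log2 fold scale (median -0.27), and 8 (25.8%) lay below the range of the others. Over all genes 19.7% lay below it. The list averaged 6.30 log2 CPM in N2 replicate 5, inside the 6.22 to 6.71 of the others, and 6.11 in its F01D4.5(baf20) counterpart. The 49 other sperm formation genes kept gave 42 negative values, the same median of -0.27 and 16 below the range. Major sperm protein genes took 0.395% and 0.372% of scaled counts in the replicate 5 libraries, against 0.418% to 0.533% in the others. For oocyte maternal factors the shares were 0.263% and 0.339% against 0.471% to 0.69%. Genes of the somatic gonad and its sheath had a median of -0.32 over 8 genes kept, with 3 below the range.

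Body wall muscle genes differed little, while genes of the neuronal list were mostly higher and the peptide lists were mixed. Of 14 body wall muscle genes kept 0 were called, with a median of -0.13; myo-3, a myosin heavy chain, had 419.3 CPM in N2 replicate 5 and 631.3 CPM in F01D4.5(baf20) replicate 5, against 380.6 to 539.8 CPM in replicates 1 to 4. Of 16 neuronal genes kept, 1 of them through the replicate 5 libraries alone, 15 were positive on the log2 fold scale (median 0.57). The range of the others was exceeded by 8 of the 16, and by 22.9% of all genes. The 3 called higher (18.8%, against 12.8% of all genes) were all genes of the touch receptor neurons. mec-7, their beta tubulin, had 149.4 and 109.9 CPM in the replicate 5 libraries, against 36.9, 43.7 and 74.3 CPM in the others (log2 fold change 1.38, SE 0.141). mec-12, their alpha tubulin, had 175.9 and 149.9 CPM in the replicate 5 libraries, against 51.9, 53.9 and 80.5 CPM in the others (log2 fold change 1.42, SE 0.122). Of 27 FMRFamide-like neuropeptide genes kept 6 were called higher (22.2%, against 12.8% of all genes), among them flp-7 at a log2 fold change of 1.56. Of the 27, 19 were positive and 8 negative, with a median of 0.28. Of 21 insulin-like peptide genes kept, 1 of them through the replicate 5 libraries alone, 2 were called higher (9.52%). Of these 21 genes 14 were negative, and their median of -0.20 ranged between -0.46 and 0.33 over the alternatives. Nuclear hormone receptor genes gave 21 of 152 called higher (13.8%), near the 12.8% of all genes, with a median of 0.54. Above the range of the other libraries lay 68 of the 152, and 22.9% of all genes. Of the 152, 5 were kept through the replicate 5 libraries alone.

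Markers of early embryos and of males had few counts in all libraries. Of 19 early zygotic embryo genes 3 were kept and 5 had 0 counts in every library. The 3 kept were mixed, with a median of -0.10. end-3 had 7 and 11 counts in the replicate 5 libraries and 3 to 21 in the others, vet-1 2 and 5 against 4 to 18, and ref-1, the member called higher, 90 and 65 against 30 to 61. Of 11 genes of male neurons and rays 4 were kept, 0 were called, and the list summed to 4.51 and 4.47 CPM in the replicate 5 libraries against 3.11 to 6.42 CPM in the others. Of 10 dauer genes 5 were kept and 1 called higher. The list's mean log2 CPM, 3.63 and 3.53 in the replicate 5 libraries, lay inside the 3.32 to 3.80 of the others. Its 5 genes went in both directions, 2 positive and 3 negative on the log2 fold scale, so this mean is not read as a measure of dauers. Its summed level was lower, at 355.4 and 363.0 CPM against 495.2 to 842.1 CPM. Most of that sum was sip-1, with 3254 and 3060 counts in the replicate 5 libraries and 4781 to 9109 in the others. The lower sum thus mainly follows that 1 gene and is not a reading of the list as a whole. hsp-12.6 had 53 and 54 counts against 14 to 39, and ctl-1 59 and 58 against 24 to 49, both above the range of the others. daf-7, with 76 and 64 counts against 74 to 150, and daf-28, with 28 and 16 against 16 to 68, overlapped with the others. The genes of the embryo and dauer lists are named here after their values were seen.

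By chromosome, the X held the largest share of genes called higher, 363 of 1844 (19.7%), with a median log2 fold change of 0.31, and chromosome V followed with 17.3%. Chromosomes I and III had 7.29% and 7.85%, with medians of -0.17 and -0.10. Of the genes on the X 9.65% lay below the range of the other libraries, and of those on chromosome I 26.8%. As background, genes expressed in the germline are known to be sparse on the X.

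Each strain was also described alone, as 1 library against 4. Of the 1688 genes called higher 1571 were called higher from the F01D4.5(baf20) libraries alone and 1466 from the N2 libraries alone. Of the 194 called lower 158 were called lower from F01D4.5(baf20) alone and 147 from N2 alone. The log2 difference between replicate 5 and the mean of replicates 1 to 4 had the same sign in both strains for 79.3% of genes, and the differences correlated across genes at r = 0.817, where genes are not independent replicates. For the genes called, the same sign is fixed by the call. Furrow collagens had a median difference of 2.51 in F01D4.5(baf20) and 2.70 in N2. Annular and body shape collagens had 4.06 in F01D4.5(baf20) and 3.07 in N2, intestinal markers 1.28 in F01D4.5(baf20) and 1.14 in N2, and oocyte factors -0.75 in F01D4.5(baf20) and -0.89 in N2. N2 replicates 2 to 4, which enter the mean for N2, stood above the other 5 libraries in the cuticle lists, as given above.

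Whether the replicate 5 difference itself differed between the strains was tested as an interaction of strain and replicate 5, the contrast that was not used to choose the libraries. By the quasi-likelihood test of edgeR, adjusted after Benjamini and Hochberg, 0 of 13167 genes (0%) passed an adjusted p of 0.05, and the smallest adjusted p was 0.999. Unadjusted p-values under 0.05 were found for 563 genes (4.28%), and DESeq2 also called 0, with 351 under that unadjusted limit. The test has 1 library in each replicate 5 cell, and its spread comes from replicates 1 to 4, so the lone libraries are assumed to vary like these. The absence of calls therefore does not show that the difference was the same in both strains. For dpy-13 the interaction was 1.48 on the log2 scale (F01D4.5(baf20) minus N2, SE 1.36), with an adjusted p of 0.999 in edgeR's test.

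**Figure D5:**
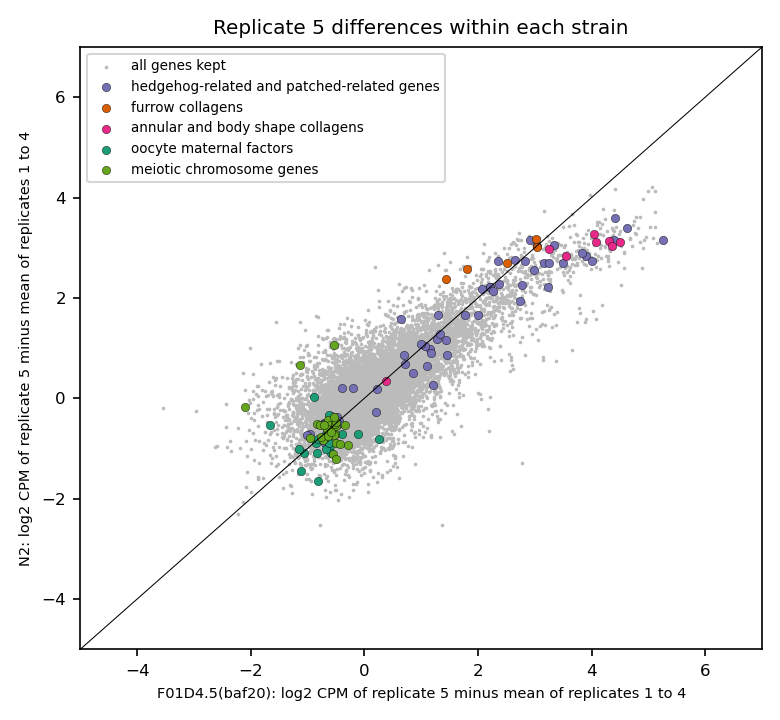
Each dot is a gene, with the log2 CPM of replicate 5 minus the mean of replicates 1 to 4 in F01D4.5(baf20) on the horizontal axis and in N2 on the vertical axis; the line marks equal differences, and the coloured lists were picked after their values were seen. Furrow collagens lie near the line, annular and body shape collagens mostly below it, with larger differences in F01D4.5(baf20), and oocyte and meiotic genes lie mostly below 0 on both axes.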

How the data were processed

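The authors deposited 1 table per library with counts, whole numbers that are not normalized, for 57827 rows named by transcript, sequence or gene. Per the submitters' processing notes, HISAT2, HTSeq, DESeq2 and CASAVA were used, with versions not given, and both ce10 and ce11 are named as builds; the sources used here do not give the strand setting. Per the labels' protocols, libraries were made with the TruSeq Stranded mRNA kit from RNA extracted with QIAzol and miRNeasy. In the series' design text the 5 samples of a strain are called biological replicates.

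Rows were matched to the Ensembl annotation on WBcel235 (57217 rows, 99.75% of counts) and summed to 46160 genes. Of these, 5524 (12.0%) had several rows and held 7.14% of counts; reads that fit several isoforms may be missing there, so levels of such genes can be too low. Overlapping genes and near-identical copies were not separated. Among pairs of libraries of a strain, replicates 1 and 2 of F01D4.5(baf20) lay closest (chi-square over degrees of freedom 2.11, next pair 5.39), though apart by more than counting error; they were kept as separate samples.

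With edgeR 4.0.16 in R 4.3.3, low genes were removed by filterByExpr with replicate 5 or not as group (minimum count 10, minimum total 15), libraries were scaled by TMM, and the quasi-likelihood model with robust estimation had strain and replicate 5 as terms. A filter by strain would drop genes counted in 2 libraries only. The TMM factors were 0.956 and 0.923 in the replicate 5 libraries and 0.988 to 1.067 in the others, and the biological coefficient of variation common to all genes was 0.193. CPM is per TMM-scaled library, log2 CPM has a prior count of 2, and the standard error (SE) is the fold change divided by the root of its F statistic. A gene was called when both replicate 5 libraries lay outside the range of the other 8 and the log2 fold change was at least 1. The interaction was tested two-sided over 13167 genes at an adjusted p of 0.05. The procedure was also run on simulated libraries, drawn independently of each other, unlike the grouped replicates of the data. How many planted interactions it recovered is not given here.

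Genes named are F01D4.5, up to 12 per direction with the largest fold change among called genes averaging 2 log2 CPM or more, up to 4 called genes per list with at least 3 called members or a median of at least 1, and a set of anchor genes. Named beside these, after their values were seen, are elt-2, dpy-17 and members of the embryo, dauer and vulva lists. The libraries, the 55 gene lists and the anchor genes were chosen with earlier results of these data known. Alternatives were DESeq2 1.42.0, other scalings and filters, a 4-fold limit, rows as deposited, each strain alone, and each library left out. The rule without a fold limit, the split of col genes by level, genes with 1 row and adding up replicates 1 and 2 of F01D4.5(baf20) were added after seeing the data.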

Additional observations from a re-analysis of the deposited data

Results flagged for a closer look

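Among the 8 libraries numbered 1 to 4, 177 values (levels of named genes and list means) were examined for a library far from the other 7. For lin-42, the relative of the period gene, N2 replicate 2 had 1.04 CPM and the other 7 had 0 to 0.274 CPM, so that 1 library sets the top of the range against which its replicate 5 values of 1.74 and 1.90 CPM stand. Chance flags about 1 in 20 such groups, and 1 of 177 was flagged here. The gene has 3 rows and few counts.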

How the results depend on the processing

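The counts of 1688 genes called higher and 194 called lower were recomputed under each alternative. The count of genes lower moved by more than 1.5 times with library totals in place of scaling factors (303, the cause was not tested), with at least 5 CPM in 2 libraries (88, where 9602 genes were kept), from the F01D4.5(baf20) libraries alone (518) and from the N2 libraries alone (462). A limit of 4-fold gave 590 higher and 14 lower. With each library left out in turn, 1664 to 1939 genes were higher and 178 to 460 lower; the lower count was 460 without N2 replicate 5 and 458 without F01D4.5(baf20) replicate 5, where 1 library in place of 2 has to lie outside the range. Apart from the 4-fold limit, the count higher lay between 1198 and 2205 under all settings. The settings not yet named gave 151 to 254 lower, among them the 2 chosen after seeing the data: genes with 1 row gave 1462 and 151, and adding up replicates 1 and 2 of F01D4.5(baf20) gave 1749 and 202.

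The interaction gave 0 genes in the main test and under every alternative run, with 351 to 944 genes at an unadjusted p under 0.05 and a smallest adjusted p between 0.148 (without N2 replicate 1) and 1. With the replicate number as a block it gave 0 genes, with 365 at an unadjusted p under 0.05 and a smallest adjusted p of 0.511 in edgeR. The numbers were not seen to pair the strains: among replicates 1 to 4, deviations from the strain mean correlated at -0.237 to 0.087 between libraries of the same number, and 1 of 8 libraries correlated best with its own number.

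No gene named by the stated rules and called in the comparison changed direction under the alternatives run. Genes named beside those rules, egl-38, cdh-3 and ref-1 included, were not recomputed singly. Of 55 list medians 13 took both signs over the settings, among them those of the yolk, small ribosomal subunit, histone, dauer and abu and pqn lists, and 42 did not, the cuticle, moulting, hedgehog-related, intestinal and oocyte lists included. Of the recomputed list medians, 89 moved by more than the spread between libraries and 1114 did not. Genes at few counts are limited by depth, since 3 counts correspond to about 0.3 CPM.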

Other observations

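All 14 transcripts of the mitochondrial genome that were kept had positive log2 fold changes, between 0.30 and 0.93, with a median of 0.55 that stayed between 0.44 and 0.60 under the alternatives run. They made up 2.61% of scaled counts in N2 replicate 5 and 2.80% in its F01D4.5(baf20) counterpart, against 1.53% to 2.12% in replicates 1 to 4. Of the 14, 9 lay above the range of the others. Of 31 genes of the respiratory chain encoded in the nucleus 0 were called, 11 lay above the range and the median was 0.23. Cytosolic ribosomal proteins of the large subunit had a median of 0.19 over 39 genes kept, with 1 called higher and 24 counted over several rows. Of the 39, 1 was kept through the replicate 5 libraries alone. Of 59 mitochondrial ribosomal protein genes 20 lay above the range, with a median of 0.12. Over all genes 22.9% lay above the range.

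Inducible heat shock genes varied widely among the libraries numbered 1 to 4. The mean of the 7 genes kept was 5.93 log2 CPM in N2 replicate 5 and 6.15 in its F01D4.5(baf20) counterpart, against 2.40 to 6.09 in the others. The values of the others were 6.09, 2.59, 5.43 and 4.22 in N2 replicates 1 to 4 and 2.40, 2.53, 5.47 and 5.08 in F01D4.5(baf20) replicates 1 to 4. hsp-12.3, a small heat shock protein gene, was the member called higher, with 42.8 and 45.2 CPM in the replicate 5 libraries and 10.8 to 20.6 CPM in the others.

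Epidermal antimicrobial peptide genes, of the nlp and cnc families, divided the 8 libraries in another way. The 15 genes kept averaged 4.53 log2 CPM in N2 replicate 5 and 4.21 in its F01D4.5(baf20) counterpart. Among the others F01D4.5(baf20) replicates 1 and 2 stood at 4.89 and 5.17, and the remaining 6 between 2.98 and 3.95. The replicate 5 libraries were thus not the highest for this list, although its genes are expressed in the epidermis like those of the cuticle lists.

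Of the genes of vulva and uterus 13 were kept, 1 of them through the replicate 5 libraries alone. Of the 13, 6 were positive and 7 negative, the median log2 fold change was -0.03, and 2 (15.4%) were called higher, near the 12.8% of all genes. Both are named here after their values were seen. egl-38, a Pax factor of the egg-laying system, had 7.79 CPM in N2 replicate 5 and 8.48 CPM in F01D4.5(baf20) replicate 5, against 1.92 to 3.96 CPM in replicates 1 to 4. cdh-3, a cadherin of epithelial cells, had 28.99 and 38.6 CPM in the replicate 5 libraries, against 7.59 to 15.3 CPM in the others.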
